A study of Homo sapiens with 12 samples.

Results

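The complement system was followed here through 34 genes of its components, regulators and receptors in 2 hepatocellular carcinoma (HCC) lines treated with DAAD2. A gene was taken as measured where at least 1 probe set of the array carried its symbol and no other. By that rule 29 of the 34 genes were measured, with 52 probe sets, among 19775 genes and 54613 probe sets in all. C4A and C4B had only probe sets that they share with each other or further symbols (3), VTN had only shared ones (2), and CFHR3 and CFHR5 had none, so these 5 genes are not reported. Measured were 7 genes of the classical and lectin pathways, 4 of the alternative pathway, 7 terminal components, 3 membrane regulators, 6 fluid phase regulators and 2 receptors of released fragments. C3 was counted with the alternative pathway, beside CFB, CFD and CFP.

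The samples were total RNA of whole cultures of established lines on Affymetrix Human Genome U133 Plus 2.0 arrays, 3 arrays in each of 4 groups and 12 in all. Hep3B cells, described by the submitters as DAAD2-sensitive, received 2 μM DAAD2 (DAAD-2 in the labels) or 0.1% DMSO, the solvent, for 72 h. SNU449 cells, described as resistant, received 20 μM DAAD2 or 0.1% DMSO for the same 72 h. DAAD2 is an amide of dehydroabietylamine, a resin acid derived amine, with N-acetyl-L-cysteine. Because the lines were given different doses, line and dose cannot be told apart wherever the effects in the lines are set against each other. Each line stands for 1 tumour only, and a culture of a line holds no stroma and no blood cells. The labels do not say whether the 3 arrays of a group stem from separate cultures, and each p-value therefore covers only the scatter among arrays, which may be of technical origin.

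Complement is a cascade of plasma proteases made mostly by hepatocytes. In the classical pathway the protease C1r activates the protease C1s, which cleaves C4 and C2. The lectin pathway cleaves C4 and C2 through mannose-binding lectin and the MASP proteases. The alternative pathway works through factor B (CFB), factor D (CFD) and properdin (CFP). All of them converge on C3, and then on C5, from which the terminal components C6, C7, C8 and C9 build the membrane attack complex. The cascade is held in check by factor I (CFI), which inactivates C3b and C4b, by C4b-binding protein, and on the cell surface by CD46, CD55 and CD59. Cells other than hepatocytes make some components as well, and C3 and factor B are known as acute phase genes that inflammatory cytokines induce.

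Promoter windows are shown for the genes that differed with DAAD2 in SNU449 or between the lines and that have exactly 1 window in the RefSeq promoter table (GRCh38.p14), to give the sequence that precedes these genes. A window runs from 250 bases before to 50 bases after the start of transcription, on the strand of the gene. The windows are chr6:31945845-31946144 on the plus strand for CFB, chr4:109801950-109802249 on the minus strand for CFI, chr12:7109165-7109464 on the minus strand for C1RL and chr1:207321428-207321727 on the plus strand for CD55. Capitals mark bases that lie in a match to any of 7 motifs named in the next paragraph.
CFB: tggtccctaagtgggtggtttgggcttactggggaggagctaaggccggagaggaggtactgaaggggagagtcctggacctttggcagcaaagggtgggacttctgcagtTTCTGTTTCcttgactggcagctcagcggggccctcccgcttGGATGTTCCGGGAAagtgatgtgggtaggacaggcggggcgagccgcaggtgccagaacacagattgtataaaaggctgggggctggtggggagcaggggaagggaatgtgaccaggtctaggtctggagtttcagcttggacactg
CFI: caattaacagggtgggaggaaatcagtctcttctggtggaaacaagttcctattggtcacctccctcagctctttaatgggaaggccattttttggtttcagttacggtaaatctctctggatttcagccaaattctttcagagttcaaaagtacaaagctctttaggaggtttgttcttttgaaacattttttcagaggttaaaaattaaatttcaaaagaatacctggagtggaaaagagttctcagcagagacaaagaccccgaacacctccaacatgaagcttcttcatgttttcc
C1RL: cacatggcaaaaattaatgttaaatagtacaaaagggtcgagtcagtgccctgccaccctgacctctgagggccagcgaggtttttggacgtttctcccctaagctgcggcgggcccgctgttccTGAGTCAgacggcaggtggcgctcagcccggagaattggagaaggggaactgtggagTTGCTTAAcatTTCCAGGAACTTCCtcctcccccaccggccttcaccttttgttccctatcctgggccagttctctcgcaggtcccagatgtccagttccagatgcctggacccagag
CD55: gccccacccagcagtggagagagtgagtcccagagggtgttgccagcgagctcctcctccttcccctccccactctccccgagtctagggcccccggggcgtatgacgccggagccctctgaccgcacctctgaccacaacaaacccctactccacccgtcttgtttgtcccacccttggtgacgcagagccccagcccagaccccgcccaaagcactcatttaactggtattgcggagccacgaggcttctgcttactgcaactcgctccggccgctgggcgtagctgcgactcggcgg

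The motifs were the interferon response core (ISRE, GAAANNGAA), the STAT element (GAS, TTCNNNGAA), a symmetric NF-kB element (GGANNTTCC), a C/EBP element (TTGCNNAA), AP-1 (TGANTCA), the antioxidant response core (TGACNNNGC) and part of an HNF1 site (GTTAATNA), each searched on both strands. They were chosen after the expression values had been seen. The CFB window held an ISRE core at -139 to -131, counted from 0 at the start site, an NF-kB match at -97 to -89 and a GAS match at -92 to -84 that overlaps it. The C1RL window held an AP-1 match at -125 to -119, a C/EBP match at -68 to -61, and a GAS match at -57 to -49 that overlaps an NF-kB match at -52 to -44. The windows of CFI and CD55 held none of the 7. Of all 35116 windows of the table, 8.11% held the ISRE core, 7.66% GAS, 4.56% NF-kB, 10.5% C/EBP, 7.71% AP-1, 13.3% the antioxidant core and 2.43% the HNF1 part. Among the 36 windows of 24 listed complement genes, some of which overlap, GAS was held by 11, C/EBP by 8, ISRE and NF-kB by 5 each, AP-1 and HNF1 by 3 each and the antioxidant core by 1. A match is a run of letters, and binding was not measured.

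The deposited values are log2 levels from RMA, in which 1 unit is a doubling of signal, and levels are compared only within a probe set. Array medians lay between 3.71 and 3.85. Each gene is represented by its brightest probe set, by mean over the 12 arrays. The test was limma with Benjamini-Hochberg adjustment over all probe sets, and a call needed an adjusted p under 0.05. All 5 hepatocyte markers and alpha-fetoprotein were higher in untreated Hep3B, with albumin (ALB) at 14.53 against 3.18, while 4 of 5 mesenchymal markers were higher in untreated SNU449. The leukocyte marker PTPRC was at 3.23 and 3.21 in the untreated lines, under the array medians. Of the leukocyte and macrophage markers LYZ and CD14 were higher in Hep3B, LYZ at 12.14 against 3.06. In 1 library, SNU449 DAAD2 replicate 2, the 3′ signal of GAPDH exceeded the 5′ signal by 1.99, against 0.34 to 0.97 on the other SNU449 arrays. Among the Hep3B arrays this excess was largest on DMSO replicate 1, at 1.51, against 0.45 to 1.05 on the others. For ACTB the 3′ signal exceeded the 5′ signal on all 12 arrays, by 1.82 to 3.27. The ACTB excess was largest on DAAD2 replicate 2 in SNU449, at 3.04, and on DAAD2 replicate 3 in Hep3B, at 3.27.

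**Figure D1:**
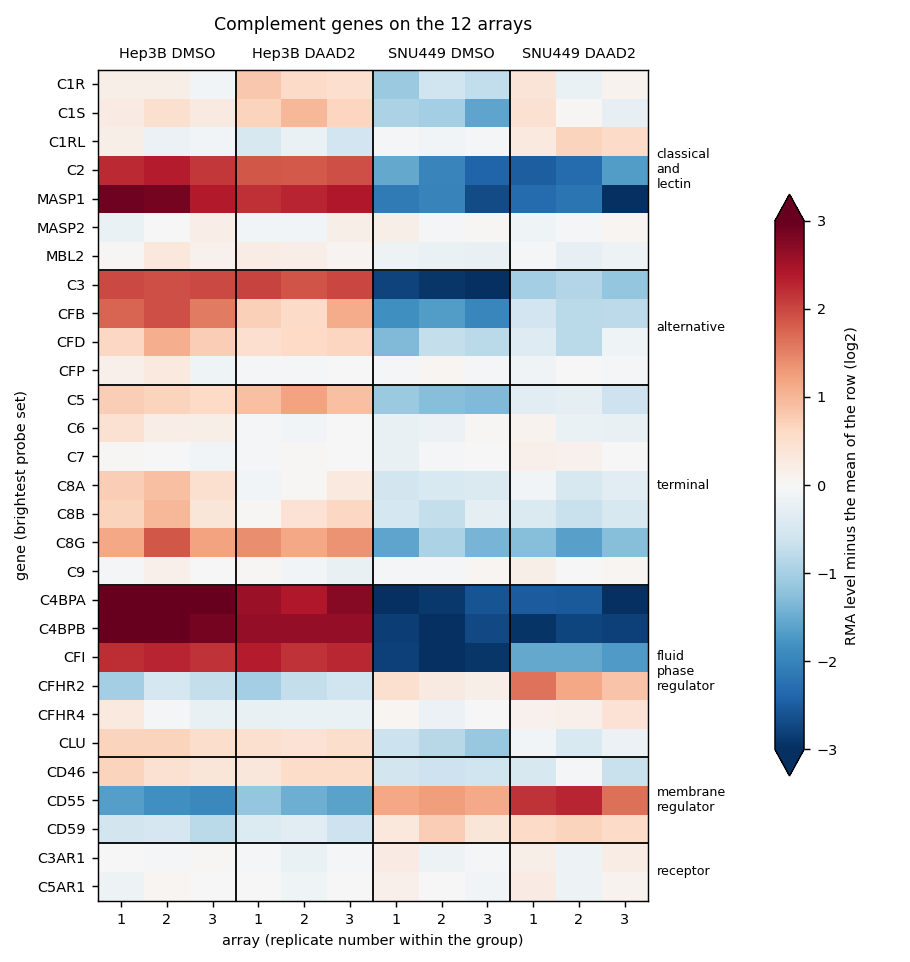
Rows are the 29 measured complement genes, grouped by role, and columns are the 12 arrays in their 4 groups. Colour gives the log2 level minus the mean of the row over all arrays, from -3 to 3, so rows are not compared with each other. C4BPA, C4BPB, CFI, MASP1 and C3 separated the lines most, CD55 and CD59 separated them the other way, and C3 in SNU449 was paler with DAAD2 than with DMSO.

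Before treatment, Hep3B cells carried far more of the secreted complement messages than SNU449 cells, and SNU449 cells carried more CD55 and CD59. Of the 29 genes, 18 were higher and 3 lower in untreated Hep3B than in untreated SNU449. Over all 19775 genes 21.4% were higher and 19.4% lower in that comparison. The median difference of the 29 genes was 1.09, against -0.01 over all genes. The cultures were bulk samples of 1 line each, in which fewer cells carrying a message and less of it per cell cannot be told apart.

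C4BPA and C4BPB, the chains of C4b-binding protein, had the largest measured differences. C4BPA was at 11.29, 11.28 and 11.42 on the Hep3B DMSO arrays and at 5.04, 5.32 and 5.61 on the SNU449 DMSO arrays, a difference of 6.01 (standard error 0.14, adjusted p = 9.73e-09). C4BPB was at 9.62, 9.98 and 9.47 against 3.76, 3.46 and 3.90, a difference of 5.98 (standard error 0.16). For both chains every Hep3B array lay above every SNU449 array, and the SNU449 mean of C4BPB, 3.71, lay under the array medians. CFI was at 8.55, 8.61 and 8.48 against 3.53, 3.34 and 3.40, a difference of 5.12 (standard error 0.10), and its SNU449 levels also lay under the array medians. The sizes of the C4BPB and CFI differences are therefore uncertain at their lower end.

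The proteases of the lectin and classical pathways ranged widely, with MASP1 and C2 far apart between the lines and C1RL and MASP2 not called. MASP1 was at 9.85, 9.80 and 9.32 in Hep3B and at 4.81, 4.92 and 4.25 in SNU449, a difference of 5.00 (standard error 0.20). Its other probe sets differed by 0.43 to 2.54, and the mean of all of them by 1.88. C2, the protease subunit of the classical C3 convertase, was at 8.20, 8.31 and 8.09 against 4.43, 3.97 and 3.56, and the mean of its probe sets differed by 2.37. C1R and C1S were called too but were closer between the lines, with C1R differing by 0.90 and C1S at means of 6.53 and 5.03. C1RL, a C1r-like protease, differed by 0.04 and was not called. Mannose-binding lectin (MBL2) was called higher in Hep3B with means of 3.16 and 2.80, both under the array medians. C3 was at 11.81, 11.77 and 11.81 in Hep3B and at 7.05, 6.92 and 6.75 in SNU449, a difference of 4.89 (standard error 0.11). CFB was at 7.58, 7.75 and 7.39 against 3.98, 4.15 and 3.87, a difference of 3.57 (standard error 0.13), or 2.08 for the mean of its probe sets. No array of one line overlapped those of the other for C2, C3, CFB or MASP1.

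The terminal genes were split by level. C5, C6, C8A, C8B and C8G were higher in Hep3B, by 0.40 (C6) to 2.72 (C8G), while C7 and C9 lay under the array medians in both lines and were not called. In SNU449 the pore components C6, C7 and C9 all had untreated means under the array medians. Receptors C3AR1 and C5AR1, which sense the fragments C3a and C5a and are known from myeloid cells, lay under the array medians in all 4 groups. CFHR2, a factor H related gene, was the only fluid phase regulator lower in Hep3B (-1.06, standard error 0.14). Its probe set is of the kind that can cross-hybridise with similar transcripts, so this value is uncertain.

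Among the membrane regulators CD46 was higher in untreated Hep3B, and CD55 and CD59 were lower. CD46, the cofactor for factor I, was at 10.81, 10.61 and 10.52 in untreated Hep3B and at 9.60, 9.54 and 9.55 in untreated SNU449, a difference of 1.09 (standard error 0.10). CD55, or decay accelerating factor, was at 6.37, 6.18 and 6.11 against 9.20, 9.28 and 9.16, 7.98-fold less (standard error 0.10 on the log2 scale). CD59, which blocks the insertion of C9, was at 9.31, 9.36 and 9.03 against 10.17, 10.58 and 10.21, a difference of -1.09 (standard error 0.14). Groups did not overlap for any of these genes. The CD59 probe set with the highest mean, 200983_x_at, is of the kind that can cross-hybridise with similar transcripts, so the size of its difference is uncertain. All 3 probe sets of CD46 were called higher in Hep3B, all 3 of CD55 lower and all 5 of CD59 lower, so the order of the lines was the same on every probe set, with sizes from -2.44 to -0.70 for CD59 and of -1.98 or beyond for CD55.

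**Figure D2:**
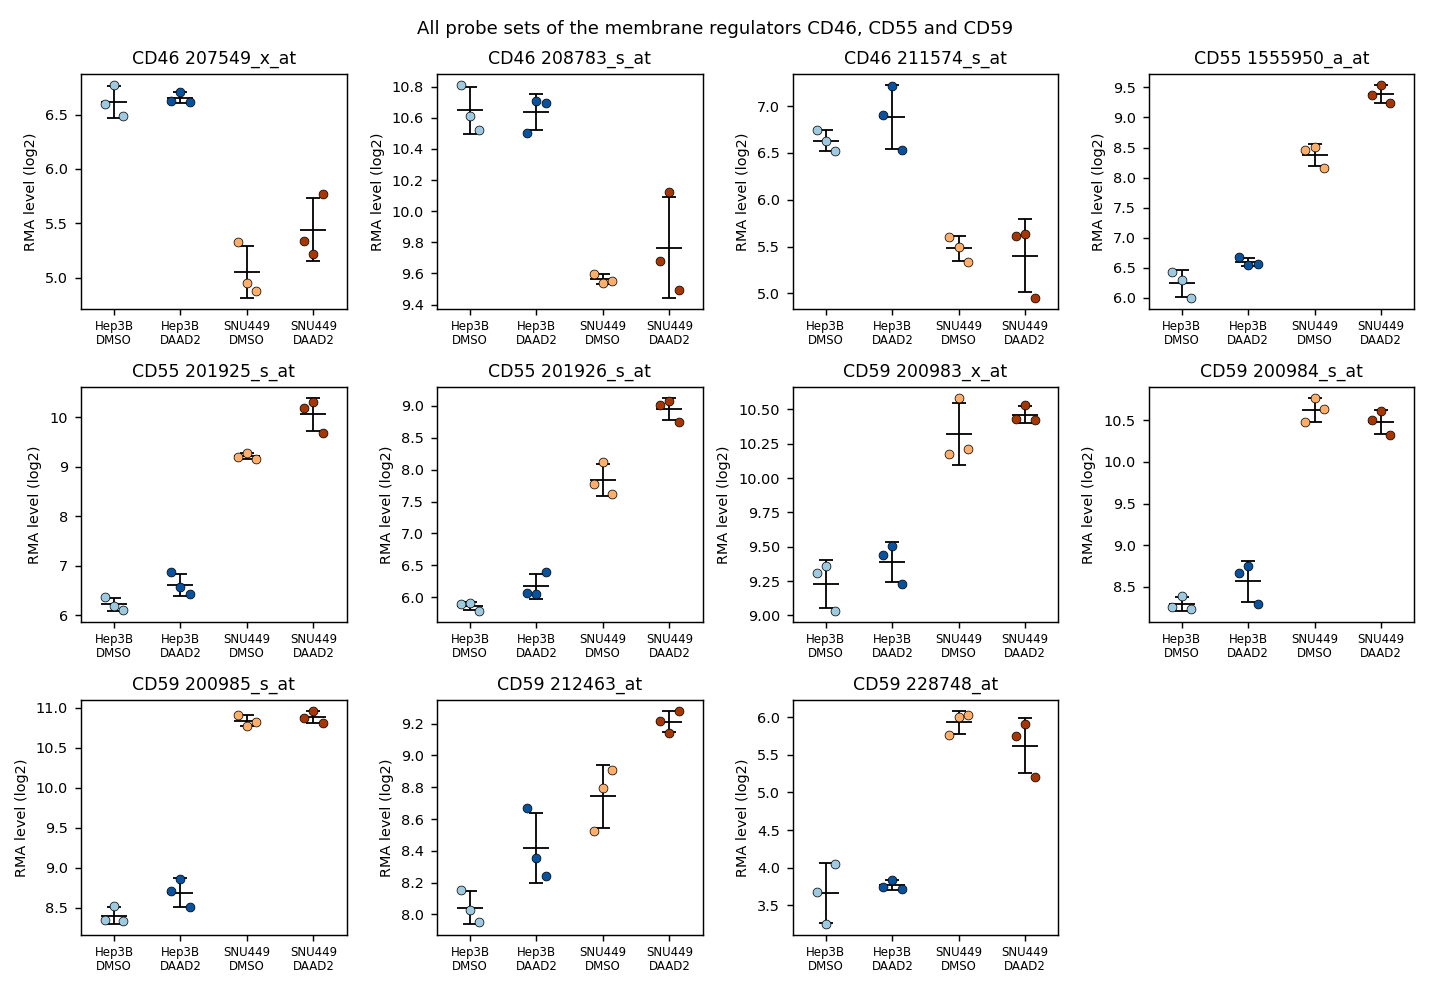
Each panel is 1 probe set of CD46, CD55 or CD59, with the log2 level on the vertical axis, points for the 3 arrays of each group, and a bar for the mean with its SD. Vertical axes do not start at 0 and differ between panels. With DMSO, Hep3B lies above SNU449 on all 3 CD46 panels and under it on those of CD55 and CD59, and only the CD55 panels show DAAD2 arrays all above DMSO arrays in SNU449 on every probe set.

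In SNU449 cells, 20 μM DAAD2 went with higher levels of C3, of the proteases CFB, CFI and C1S, of C5 and of CD55. These 6 of 29 genes were called higher and 0 lower, while over all 19775 genes 1.82% were higher and 0.561% lower. On an unadjusted p under 0.05, 11 of the 29 were higher and 0 lower, where 9.42% of all genes were higher and 7.18% lower. The median difference of the 29 genes was 0.18, against 0.00 over all genes, and 23 of them had a positive sign. Counted by probe set, 8 of 52 were higher and 0 lower, against 1.04% and 0.417% of all 54613 probe sets. In both SNU449 groups 9 of the 29 genes lay under the array medians.

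C3, on which all pathways converge, showed the largest difference. Its probe set, 217767_at, was at 7.05, 6.92 and 6.75 with DMSO and at 8.80, 8.95 and 8.67 with DAAD2, a 3.75-fold difference (1.91 on the log2 scale, standard error 0.13, adjusted p = 0.000765). Even so, no treated SNU449 array reached the Hep3B arrays, which lay between 11.73 and 11.86. CFB, the protease of the alternative C3 convertase, was at 3.98, 4.15 and 3.87 with DMSO and at 5.26, 5.02 and 5.05 with DAAD2 (1.11, standard error 0.12, adjusted p = 0.00633). The other CFB probe set, 211920_at, differed by 0.03 and was not called, and their mean differed by 0.57. CFB was not called when SNU449 DMSO replicate 3 was left out (adjusted p = 0.0508, range over all alternatives 0.00113 to 0.0508). CFD, the protease that cleaves factor B, had a difference of 0.50 that did not pass (adjusted p = 0.387), and properdin (CFP) lay under the array medians.

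CFI, which inactivates C3b, was higher in the same samples as C3. Its levels were 3.53, 3.34 and 3.40 with DMSO and 4.78, 4.78 and 4.62 with DAAD2 (1.30, standard error 0.11, adjusted p = 0.00229). The DMSO levels lay under the array medians and the DAAD2 levels above them. Its second probe set, 1555564_a_at, differed by 0.02 and was not called, and their mean differed by 0.66. C3 and CFI were called with every SNU449 array left out in turn.

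Among the C1 proteases, C1S was at 5.27, 5.20 and 4.62 with DMSO and at 6.67, 6.25 and 5.97 with DAAD2 (1.27, standard error 0.22, adjusted p = 0.0307). The groups did not overlap, but the arrays within a group were spread more widely than for C3 or CFI. The other C1S probe set, 1555229_a_at, differed by -0.02 and was not called, and the mean of the pair differed by 0.62. C1R, which activates C1s, was at 4.87, 5.39 and 5.24 against 6.37, 5.78 and 6.08, a difference of 0.91 just outside the threshold (adjusted p = 0.0557). C1RL was at 6.25, 6.22 and 6.24 against 6.60, 6.99 and 6.88, a difference of 0.59 (adjusted p = 0.0646), while its second probe set, 233645_s_at, differed by -0.01. C1S, C1R and C1RL are direct neighbours on chromosome 12, and all 3 showed DAAD2 arrays above all DMSO arrays on their brightest probe sets. The share of all genes whose groups separated in this way was not computed, so the separation is not read as a result. C1S was not called without DMSO replicate 1, 2 or 3 or DAAD2 replicate 1, with adjusted p between 0.0612 and 0.117 (all alternatives 0.00263 to 0.117). C2, MASP1, MASP2 and MBL2, the other early components, had differences between -0.47 and 0.05, and none passed.

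Of the 7 terminal genes, C5 alone was called. It was at 6.64, 6.47 and 6.43 with DMSO and at 7.41, 7.46 and 7.13 with DAAD2 (0.82, standard error 0.13, adjusted p = 0.0229). No array of one group overlapped the other. Without DMSO replicate 1, 2 or 3 or DAAD2 replicate 1 its adjusted p was 0.0517 to 0.124 (all alternatives 0.00206 to 0.124), past the threshold. The other 6 terminal genes had differences between -0.09 and 0.19.

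CD55 was the membrane regulator that rose. It was at 9.20, 9.28 and 9.16 with DMSO and at 10.19, 10.31 and 9.69 with DAAD2 (0.85, standard error 0.16, adjusted p = 0.0458). DAAD2 replicate 3 was the lowest treated array, yet above all controls. Its other probe sets were also called, 1555950_a_at at 1.01 (adjusted p = 0.0133) and 201926_s_at at 1.11 (adjusted p = 0.0159). On 201925_s_at, the one with the highest mean, the call was lost without any single array other than DAAD2 replicate 3, with adjusted p of 0.0709 to 0.197 (all alternatives 0.00815 to 0.197). CD46 (0.20) and CD59 (0.14) did not pass. None of the other CD46 or CD59 probe sets was called.

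The remaining fluid phase regulators did not pass the test. CFHR2 had a difference of 0.90 (adjusted p = 0.063) and clusterin (CLU), which binds terminal complexes, one of 0.62 (adjusted p = 0.115). The CFHR2 value comes from the probe set that can cross-hybridise. C4BPA, at 0.06, and C4BPB, at 0.05, had overlapping groups. The receptors C3AR1 (0.07) and C5AR1 (0.04) stayed under the array medians. Without the SNU449 array with the high GAPDH 3′ signal, DAAD2 replicate 2, 6 genes were called higher, with C1R in place of CD55.

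The 5 hepatocyte markers, alpha-fetoprotein and the 7 leukocyte and macrophage markers gave 0 calls in SNU449 with limma (0 of either sign at an unadjusted p under 0.05), with PTPRC at 3.21 and 3.11 and LYZ at 3.06 and 3.13 in the control and treated groups. Of the leukocyte and macrophage markers, 5 lay under the array medians in both groups. The 5 mesenchymal markers also gave 0 calls and 0 at that unadjusted p, with 1 positive and 4 negative signs. VIM was at 13.94 and 13.70 (-0.25, adjusted p = 0.5 in limma).

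**Figure D3:**
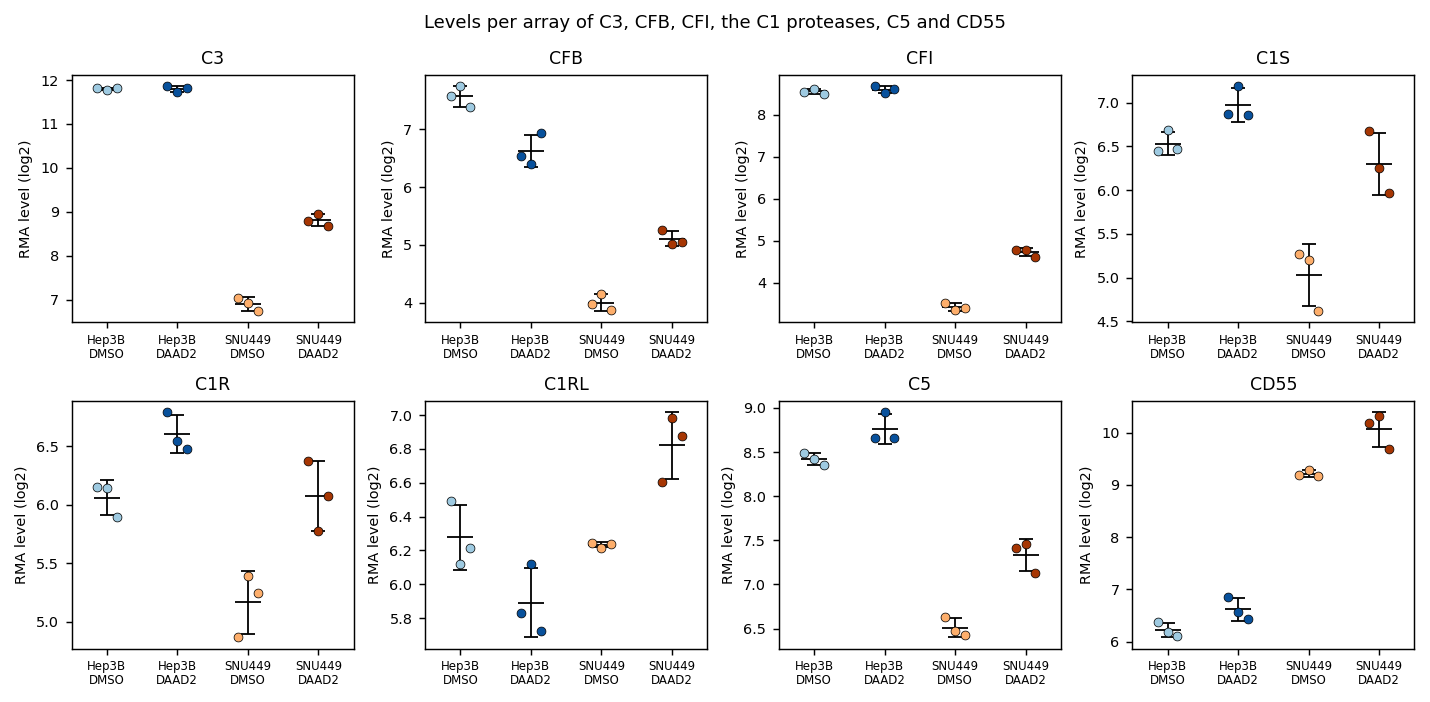
Panels show the log2 level of 8 genes on every array, with points for arrays, a horizontal bar for the mean and whiskers for the SD of 3 arrays. Vertical axes do not start at 0 and differ between panels. In each panel all SNU449 DAAD2 arrays lie above all SNU449 DMSO arrays, while in Hep3B C3 and CFI overlap, CFB and C1RL lie lower with DAAD2, and C1R, C1S, C5 and CD55 lie higher.

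In Hep3B cells, 2 μM DAAD2 gave no complement call in either direction. With limma 0 of 29 genes passed, as did 0% of all 19775 genes. The adjusted p of the 29 genes ran from 0.077 to 0.988. At an unadjusted p under 0.05, 4 of the 29 were higher and 8 lower, where 13.6% of all genes were higher and 6.63% lower. The median difference of the 29 genes was -0.11, against -0.01 over all genes.

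None of the following differences passed the test. The largest in size was that of CFB, followed by C8A, C4BPA, C1R, C4BPB and C1S. CFB was at 7.58, 7.75 and 7.39 with DMSO and at 6.54, 6.41 and 6.94 with DAAD2, a difference of -0.94 (standard error 0.15, adjusted p = 0.077). C4BPA was at 11.29, 11.28 and 11.42 against 10.79, 10.62 and 10.93, a difference of -0.55 (standard error 0.11, adjusted p = 0.0924). For C4BPB the levels were 9.62, 9.98 and 9.47 against 9.23, 9.24 and 9.23 (-0.46, standard error 0.13, adjusted p = 0.173). All treated arrays lay below all controls for these 3 genes, but the share of all genes that separated in this way was not computed. C8A, the alpha chain of C8, was at 5.05, 5.22 and 4.81 against 4.25, 4.36 and 4.62 (-0.62, standard error 0.14, adjusted p = 0.108).

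The opposite sign was seen in C1R and C1S, but not in C1RL, whose mean was 6.28 with DMSO and 5.89 with DAAD2. C1R was at 6.15, 6.15 and 5.89 with DMSO and at 6.79, 6.55 and 6.48 with DAAD2 (0.54, standard error 0.12, adjusted p = 0.106). C1S was at 6.44, 6.68 and 6.46 against 6.86, 7.19 and 6.86 (0.44, standard error 0.12, adjusted p = 0.161). For both, no treated array overlapped the controls, and here too the share of all genes was not computed. The second C1S probe set went the other way, at -0.20. C5 (0.34) and CD55 (0.40) also had an unadjusted p under 0.05 and a positive sign, without passing after adjustment. C3, at 11.86, 11.73 and 11.82 with DAAD2, differed by 0.00 (standard error 0.09), and CFI by 0.04.

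Probe sets of MASP1 went apart in Hep3B: the one with the highest mean, 232224_at, differed by -0.43 and 213749_at by 0.49, and neither was called. CFB was called lower under some alternatives, at adjusted p of 0.0259 with all 12 arrays in 1 fit, 0.03 with a trended and robust variance and 0.043 for the mean of its probe sets (all alternatives 0.0259 to 0.269). C4BPA was called lower with a trended and robust variance (adjusted p = 0.0277, all alternatives 0.0277 to 0.304). The hepatocyte markers gave 0 calls of 5 with limma and had 3 lower and 0 higher at an unadjusted p under 0.05. At the same threshold alpha-fetoprotein was lower (-0.43), mesenchymal markers had 2 higher and 0 lower of 5 (VIM at 0.53), and leukocyte and macrophage markers had 1 higher and 3 lower of 7 (LYZ at -0.59), with 0 calls after adjustment in limma. The hepatocyte markers' median difference was -0.32, next to -0.17 for the fluid phase regulators and -0.18 for the alternative pathway genes, and the part of any of these markers in the complement values was not tested.

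**Figure D4:**
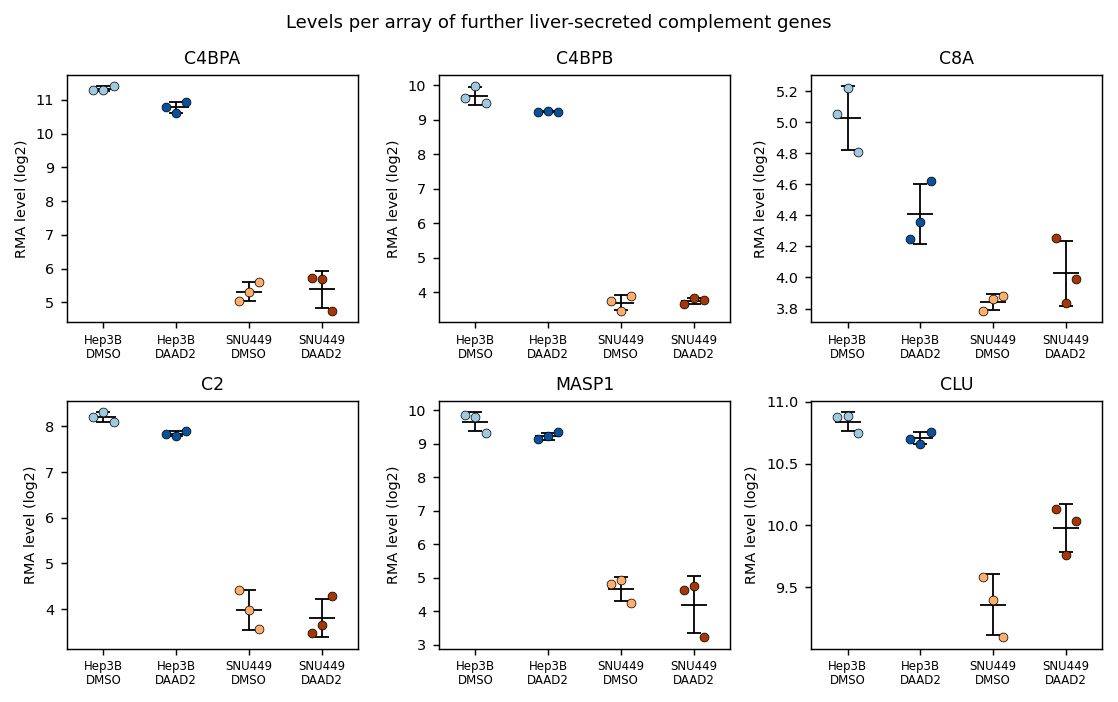
Panels show the log2 level of C4BPA, C4BPB, C8A, C2, MASP1 and CLU on every array, as points, with the mean and SD of each group of 3 arrays. Vertical axes do not start at 0 and differ between panels. With DMSO, Hep3B lies above SNU449 for each gene, and the Hep3B DAAD2 arrays lie below the Hep3B DMSO arrays for C4BPA, C4BPB, C8A and C2, with differences of -0.62 to -0.36.

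Setting the effects of DAAD2 in the lines against each other, 4 of 29 genes had a lower effect in Hep3B than in SNU449 and 0 a higher one. Over all genes 1.46% had a lower effect in Hep3B and 1.82% a higher one. The comparison is the interaction term of a limma fit over the 12 arrays, and it sets 2 μM against 20 μM. The median over the 29 genes was -0.36, against -0.02 over all genes.

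CFB had the largest gap, with an effect of -0.94 in Hep3B and 1.11 in SNU449, a difference of -2.05 (standard error 0.21, adjusted p = 0.000488). For C3 the effects were 0.00 and 1.91, a difference of -1.90 (standard error 0.15, adjusted p = 7.24e-05). For CFI they were 0.04 and 1.30, a difference of -1.26 (standard error 0.14, adjusted p = 0.000949). C1RL was at 6.49, 6.12 and 6.22 in untreated and 5.83, 6.12 and 5.73 in treated Hep3B, where the closest arrays of the groups differed by less than rounding shows. Its effects were -0.39 and 0.59, a difference of -0.97 (standard error 0.19, adjusted p = 0.0213). The mean of both C1RL probe sets gave -0.55, and the second one alone -0.12 (adjusted p = 0.791). For the second probe set of CFB the difference was -0.54 (adjusted p = 0.267), and for that of CFI 0.02. CFB and C1RL thus had opposite signs in the lines, while C3 and CFI had an effect near 0 in Hep3B.

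C3 and CFB held their calls under all 22 alternatives run for this difference. CFI lost its call when all its probe sets were averaged (-0.62, adjusted p = 0.12, all alternatives 0.000309 to 0.12). C1RL lost its call without SNU449 DMSO replicate 2 or 3, Hep3B DMSO replicate 1 or Hep3B DAAD2 replicate 1, with adjusted p of 0.0563 to 0.0648 (all alternatives 0.00691 to 0.0648). C8A (-0.80, adjusted p = 0.0556) and CLU (-0.75, adjusted p = 0.0568) fell just outside. C1S, C5 and CD55, called in SNU449, had differences between the lines of -0.83 (adjusted p = 0.163), -0.48 (adjusted p = 0.19) and -0.45 (adjusted p = 0.394), so a difference between the lines was not shown for them.

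**Figure D5:**
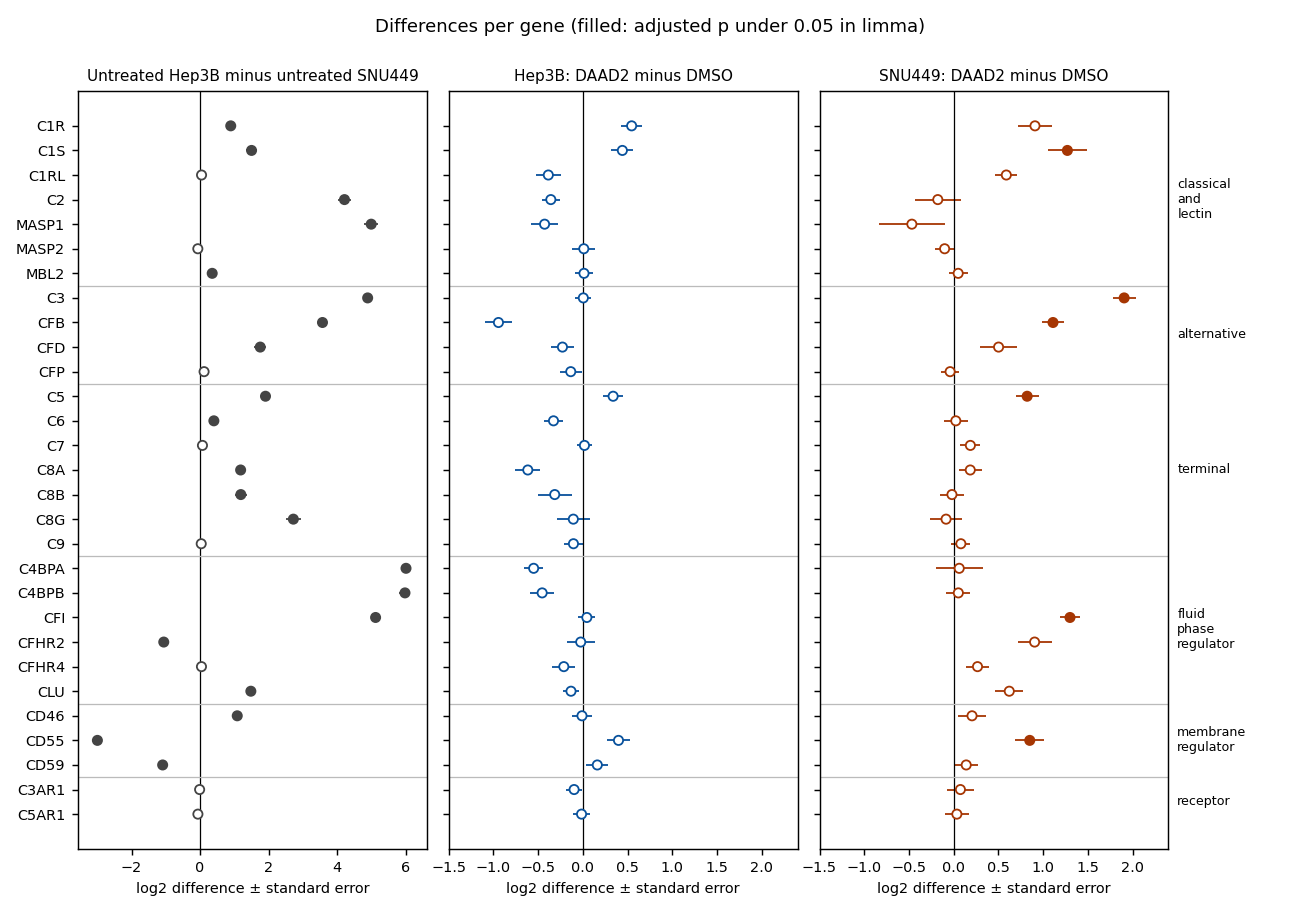
Rows are the 29 genes grouped by role, and the panels give the log2 difference of untreated Hep3B minus untreated SNU449, of DAAD2 minus DMSO in Hep3B and of DAAD2 minus DMSO in SNU449. Whiskers are standard errors and filled points passed the adjusted p of 0.05 in limma, 21, 0 and 6 in the 3 panels. The left panel has a wider horizontal scale than the others, and it uses the control arrays of both other panels.

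By class, the alternative pathway genes had the largest median effect in SNU449, 0.81 with 2 of 4 called higher. C3, on which all pathways converge, was counted in this class, whose effects ran from -0.04 (CFP) to 1.91 (C3). The fluid phase regulators had a median of 0.44 with 1 of 6 called, the membrane regulators 0.20 with 1 of 3, the terminal genes 0.08 with 1 of 7, the classical and lectin genes 0.05 with 1 of 7 and the receptors 0.05 with 0 of 2. In Hep3B the medians of the same classes were -0.18, -0.17, 0.16, -0.11, 0.01 and -0.06, all with 0 calls by limma. Class medians hide members that moved apart: in the classical and lectin class C1S, C1R and C1RL stood between 0.59 and 1.27 in SNU449, next to -0.18 for C2. In the untreated comparison the class medians were 2.66 for the alternative pathway, 3.30 for fluid phase regulators, 1.18 for terminal genes, 0.90 for classical and lectin genes, -0.04 for receptors and -1.09 for membrane regulators. With 2 to 7 genes in a class, these medians describe the classes and were not tested.

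Genes that are neighbours in the genome did not always go together. C4BPB, C4BPA and CD55 follow each other on chromosome 1, with CD46 a little further on. Both C4BP genes were higher in untreated Hep3B by about 6 units (5.98 and 6.01), CD46 was higher by 1.09, and CD55, next to C4BPA, was 7.98-fold lower. In treated SNU449, CD55 rose by 0.85 beside differences of 0.06 and 0.05 in the C4BP genes. C2 and CFB lie close together on chromosome 6, where C2 differed by -0.18 and CFB by 1.11 in SNU449, and by -0.36 and -0.94 in Hep3B.

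Further genes of the pathway outside the 34 were counted as well, 24 of them measured: 10 that start the cascade, such as C1q chains, ficolins and pentraxins, 5 inhibitors and 9 receptors. With limma 0 of the 24 were called in either line with DAAD2. At an unadjusted p under 0.05, 1 was higher and 3 lower in Hep3B, and 0 were higher and 1 lower in SNU449, with 13.6% and 6.63% of all genes in Hep3B and 9.42% and 7.18% in SNU449. SERPING1, the C1 inhibitor that blocks C1r and C1s, had differences of -0.48 in Hep3B (adjusted p = 0.121) and 0.06 in SNU449. C1QBP, a protein that binds the globular heads of C1q and resides largely in mitochondria, was the single one whose effect differed between the lines, with 0.44 in Hep3B and -0.33 in SNU449 (difference 0.77, adjusted p = 0.0399). Over all genes 1.82% had a higher effect in Hep3B and 1.46% a lower one. In the untreated lines 4 of the 24 were higher in Hep3B, among them SERPING1 by 2.27, and 1 was lower, the pentraxin PTX3, at 2.84 against 6.63 in SNU449. Over all genes 21.4% were higher and 19.4% lower in that comparison. Of the 24, 13 lay under the array medians in both untreated lines.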

How the data were processed

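Total RNA of Hep3B and SNU449 cells was hybridised to 12 Affymetrix arrays. The deposited log2 values had been processed by the authors with RMA (background correction, normalization between arrays, summary per probe set), and the paper names BRB Array Tools for normalization. The sources used here give no build for the probe annotation. No column of values was left unused (0).

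Groups came from the labels. Each line was fitted on its own with limma 3.58.1 (R 4.3.3), two-sided, over 54613 probe sets without 62 control probe sets, and so were the untreated arrays. How the lines differed in response was tested by the interaction in a fit of all arrays. Calls are an adjusted p under 0.05 (Benjamini-Hochberg over all probe sets). Depth does not apply to arrays, and 3 per group limit the precision.

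Symbols came from the platform annotation: 41091 probe sets carry 1 symbol, 1801 several and 11721 none. The members and lists were chosen with earlier results of these data known. Per-array values are given for members called in SNU449 or in the interaction, in Hep3B for the 6 largest differences at an unadjusted p under 0.05, and in the untreated lines for the 8 largest differences and the membrane regulators. C1R, named in SNU449 with its values, and MASP1 probe sets were chosen after values were seen. A member is under the array medians where its mean is below their median, 3.79. No block was used in the main fits, as the labels do not say that a replicate number marks a shared culture or day. Same-numbered arrays did not all deviate together (correlations -0.27 to 0.09 in Hep3B, -0.08 to -0.01 in SNU449, 0.02 to 0.21 between the untreated lines). With 3 arrays per group, these correlations cannot decide whether the numbers pair the arrays. The methods were tested on simulated data. Python 3.11.15 with pandas 2.3.3, numpy 2.4.6 and matplotlib 3.10.9 served for tables and plots.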

Additional observations from a re-analysis of the deposited data

Results flagged for a closer look

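The effect of DAAD2 differed between Hep3B at 2 μM and SNU449 at 20 μM for 4 complement genes by a test of the difference itself, the limma interaction term. The Hep3B effect minus the SNU449 effect, on the log2 scale, was -2.05 for CFB, -1.90 for C3, -1.26 for CFI and -0.97 for C1RL. CFB was lower on all 3 treated Hep3B arrays and higher on all 3 treated SNU449 arrays than on the controls of the line. Line and dose cannot be told apart in these differences.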

How the results depend on the processing

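No difference of a gene named by the rule turned its direction under the alternatives run. Of the single-gene values named by the rule, 429 recomputed values kept their side of the threshold, 22 lost it and 8 passed it newly. The count of complement genes higher in treated SNU449, 6, was 10 with all 12 arrays in 1 fit and 10 at a fold over 1.5 with an unadjusted p under 0.05, and it ran from 2 to 7 with 1 array left out, at 3 without DMSO replicate 1, 3 without DMSO replicate 2, 2 without DMSO replicate 3 and 3 without DAAD2 replicate 1. The count lower in treated Hep3B, 0, was 2 with a trended and robust variance, 1 with all 12 arrays in 1 fit, 1 with the mean of the probe sets of a gene, 2 at an adjusted p under 0.1 and 2 at a fold over 1.5 with an unadjusted p under 0.05. The count with a lower effect in Hep3B than in SNU449, 4, was 9 at that fold and unadjusted p and 3 to 6 with 1 array left out. The counts in the untreated lines, 18 and 3, were 16 to 17 and 3 with 1 array left out. The cause of these shifts was not tested. Shares of all genes were computed only for the main fits, at an adjusted or unadjusted p under 0.05. Counts under the alternatives therefore cannot be set against a share of all genes.

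With the replicate number as a block, 4 genes were higher in treated SNU449 (C1S, C3, CFB and CFI), CD55 and C5 having adjusted p of 0.0742 and 0.0566 (all alternatives 0.00815 to 0.197 and 0.00206 to 0.124). It gave 0 calls in Hep3B, and 4 for the difference between the lines. With each array centred on its median CD55 was not called (adjusted p = 0.0648). Whether the numbers pair the arrays is not known. A filter at a log2 level of 5 removed CFI and CFB from the SNU449 fit. Genes under the array medians may have little signal over background, which was not measured, so the size of a difference in them is uncertain.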
